A study of Drosophila melanogaster with 40 samples.

Results

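Of the 468 regions at which MACS2 found more tagged Capicua (Cic) signal than in untagged embryos, 365 do not appear in the authors' final list of 103 Cic peaks. These 365 left-out calls are the calls whose chromosome and start match no entry of the final list. The match itself used positions only. The 103 final peaks are the point of comparison throughout. No source used here states the filter that led from 468 calls to 103 peaks, so any value of a call may have entered it. For that reason the comparisons between left-out calls and final peaks are descriptions of 2 lists, with no test.

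Capicua is an HMG-box transcriptional repressor that keeps genes of terminal and lateral fates silent in the early Drosophila embryo. Receptor tyrosine kinases such as Torso and Egfr act through Ras, the kinase MEK (Dsor1) and the kinase ERK (rolled, rl), and active ERK relieves repression by Cic. In a ChIP-seq experiment with an antibody against GFP, DNA that the antibody takes down from embryos without GFP gives the level against which bound regions are read.

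The series held 40 libraries of 7 groups of embryos at early nuclear cycle 14, with 20 libraries of immunoprecipitated DNA and 20 of input. Wild type embryos, of genotype (+/+);(CicsfGFP/+), were heterozygous for Cic fused at its endogenous locus to super-folder GFP, and OreR embryos, (+/+), carried no tag. Both were collected for 3 to 4 h in the dark, fixed for 15 min and treated with the same antibody. The calls pooled the 3 wild type ChIP libraries, 6994179 tags, against the 3 untagged ChIP libraries, 5712080 tags, so each call has 1 value per condition and the spread between replicates is unknown. The z-score windows used at the end also cover OptoSOS embryos, of genotype (UAS-OptoSOS/gal4);(CicsfGFP/gal4), in which blue light activates Ras, after 0, 1, 5 or 30 min of light. Their gal4 was MTD gal4, a maternal driver. They further cover (TorD4021/+);(cicsfGFP/+) embryos with a constantly active Torso receptor. The genotypes name no allele of rl or Dsor1 in any of these groups.

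The left-out calls were lower and shorter than the final peaks and stood on a higher untagged background. Pileup, the height of extended reads at the summit scaled to the smaller library, had a median of 40.02 over the 365 left-out calls (95% order-statistic interval 38.38 to 40.83) and of 78.4 over the 103 final peaks (68.6 to 91.47). The quartiles of pileup, 33.48 to 49 in the left-out calls and 55.53 to 120.46 in the final peaks, did not overlap. These intervals describe the spread over regions and not over embryos. In whole embryos, a lower height from fewer bound nuclei and from less Cic per nucleus cannot be told apart.

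In reads, the median left-out summit held 49 extended wild type reads (29 to 285) and the median final summit 96 (48 to 331). The untagged level, the local read height in OreR embryos against which MACS2 judged each summit, had a median of 11 in the left-out calls (10.15 to 12 as interval of the median) and of 8.55 in the final peaks (8 to 9). It was above the final median at 266 of 365 left-out calls, or 72.9%. The median fold enrichment, the authors' ratio of wild type to untagged height with 1 added to each, was 3.23 (3.15 to 3.37) in the left-out calls and 7.19 (6.57 to 8.32) in the final peaks. All 103 final peaks had a fold of at least 5.02, so the differences in pileup and untagged level follow in part from how the list was cut.

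Fold enrichment separated the lists at 5, apart from 8 calls. A fold of 5 or more was reached by 8 of the 365 left-out calls and by all 103 final peaks, against 23.7% of all 468 calls. The other 357 left-out calls lay under 5. Because the final list shows no value under 5.02, that count describes the list and is not a result about its members. A -log10 q of at least 5 was reached by 257 left-out calls, or 70.4%, against 76.9% of all 468 calls and all 103 final peaks. That threshold lies below every final peak. The lowest -log10 q of a final peak was 13.5, and the upper quartile of the left-out calls was 10.2.

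Left-out calls just below 5 were at CG30089 with a fold of 4.997 (2R, 15735094 to 15735556, dm6), at CHES-1-like, which encodes a forkhead protein, with 4.99 (X, 7710826 to 7711058), and at CG13653 with 4.99 (3R, 25194823 to 25195209). The final peaks just above were at vlc with 5.02 (2R, 5701974 to 5702152), beside cv-c with 5.05 (3R, 14391356 to 14391520) and at Mkp3, which encodes a phosphatase of ERK, with 5.06 (3L, 19082968 to 19083540). Counting error on the wild type reads spans this edge. At CG30089 the 67 summit reads gave a 95% exact Poisson interval of 3.89 to 6.32 for the fold, and at vlc the 51 reads gave 3.77 to 6.56. Such intervals reached 5 at 98 of the 357 left-out calls under 5, and reached below 5 at 34 of the 103 final peaks. They hold the untagged level fixed and cover counting error only.

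**Figure D1:**
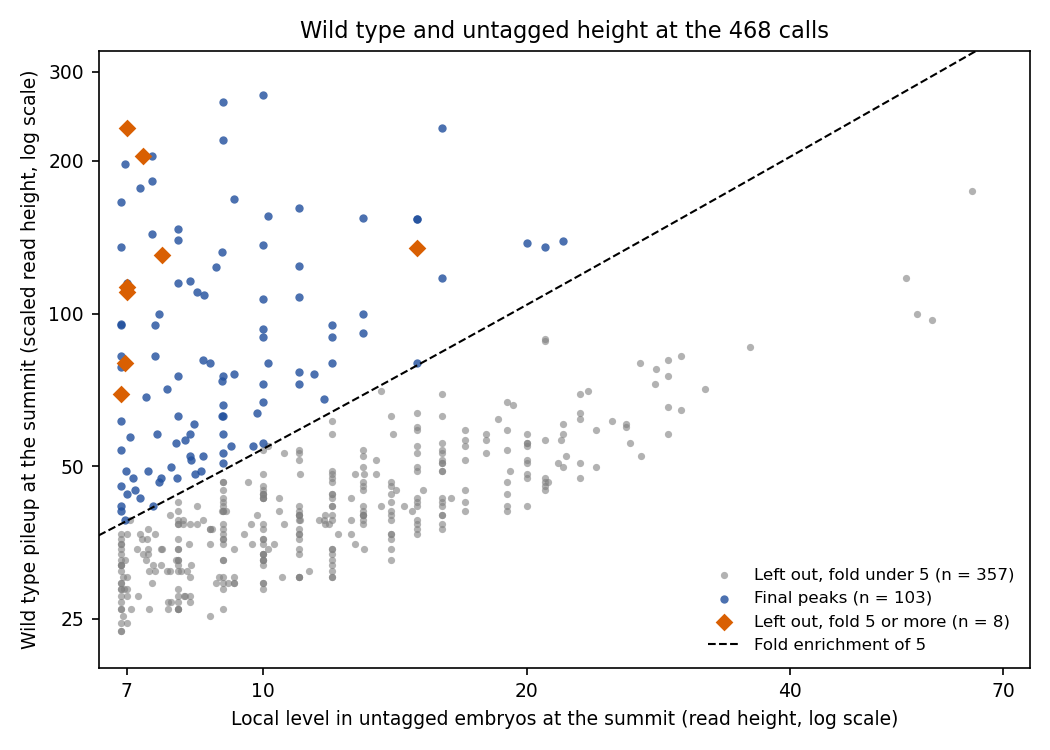
Wild type pileup against the local untagged level at the summit of each of the 468 calls, both in read height on log axes. Points are 357 left-out calls under 5-fold (grey), 103 final peaks (blue) and 8 left-out calls of 5-fold or more (orange diamonds); the dashed line is a fold enrichment of 5, and grey points lie below it both at low pileup on the left and at high untagged level on the right.

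Among the 357 left-out calls under 5-fold, 165 had a pileup below 39.2, the lowest of any final peak, and 192 had a pileup at or above it. The median untagged level was 8.29 at the 165 calls and 15 at the 192. Only 10 of the 357 reached the median final pileup of 78.4, and their median untagged level was 33. A call under 5-fold with a high pileup must have a high untagged level, so these levels follow in large part from the cut and are given as a description.

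The untagged level exceeded 22, the highest at any final peak, at 29 left-out calls. Their median fold was 2.30, and 8 of the 29 had a pileup at or above the final median. Of these 29 summits, 24 (82.8%) lay inside an annotated gene, against 64.1% of all left-out summits and 60.2% of final summits. Within 1000 bp of a gene edge lay 20 of the 29 (69%), against 50.1% and 38.8%. The highest level, 64.4, belonged to a call of 145 bp on X (23433304 to 23433448) with a pileup of 174.77 and a fold of 2.69. Its nearest annotated gene, mir-10404-5, was 104869 bp away.

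A further 8 left-out calls had folds between 8.48 and 29.2, against 5.02 to 26.2 in the final peaks. Of these 8, 7 lay in the genes for MEK and ERK. The highest fold of all 468 calls was in Dsor1 (X, 9248495 to 9249190), where the pileup was 232.76 over an untagged level of 7 and the fold 29.2 (counting interval 25.9 to 32.8). A second call in Dsor1 (X, 9249339 to 9249927) had a pileup of 69.42 over 6.90 and a fold of 8.91 (7.14 to 11). Both lie within a gene of 2696 bp, and their summits were 585 bp apart.

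In rl, a gene of 54466 bp on 2R, 5 separate calls spanned 41135 bp between the first and the last summit. From left to right their pileups were 130.67 (1072177 to 1072528), 112.7 (1076569 to 1076829), 80.04 (1080236 to 1080513), 134.75 (1105782 to 1106065) and 110.25 (1113290 to 1113549). Their folds were 15.2, 14.2, 10.2, 8.48 and 13.9 in the same order. The untagged level was 6.96 to 7.68 at 4 of the 5 calls and 15 at the call from 1105782. These rl calls were short, 260 to 352 bp, while the 2 Dsor1 calls covered 696 and 589 bp. No other left-out call and no final peak had rl or Dsor1 as its nearest gene.

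The remaining strong call lay 55 bp outside CG8500 (3R, 9784242 to 9784840), with a pileup of 204.99 over an untagged level of 7.31 and a fold of 24.8 (21.8 to 28). All 8 strong calls were far from the final peaks: the nearest final summit was 119509 bp away, from Dsor1 to fend, and those of rl were at least 4588601 bp away. Why these 8 calls are not in the final list was not tested. The median length of the 8 was 318 bp, between the left-out median of 201 bp and the final median of 381 bp, and their median pileup of 121.69 was above the final median.

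Left-out calls were short. Their median length was 201 bp (193 to 211), with quartiles of 168 and 281 bp, against 381 bp (329 to 453) and quartiles of 289.5 and 515.5 bp in the final peaks. Of the 365, 279 (76.4%) were no longer than the lower quartile of the final peaks, and 45 (12.3%) reached the final median. The shortest 14 measured 145 bp, the length to which the authors extended each read. No final peak was shorter than 165 bp.

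A few left-out calls were nonetheless the longest regions of the whole table, and these stood on high untagged levels. The longest, 2022 bp, lay in slam, a gene needed for cellularization (2L, 6375577 to 6377598), with a fold of 2.91 over an untagged level of 23.5. A second slam call of 1805 bp (2L, 6373602 to 6375406) had a fold of 2.90 over 27. In Nrt, which encodes the adhesion protein Neurotactin, a call of 1673 bp (3L, 16774789 to 16776461) had 3.40 over 19. At Elba2, which encodes an insulator protein, 1520 bp (2L, 2578041 to 2579560) had 2.61 over 21. At ND-19, which encodes a subunit of respiratory complex I, 1271 bp (2R, 24664687 to 24665957) had 2.69 over 20. The 5 left-out calls over 1000 bp had a median untagged level of 21, and the 3 final peaks over 1000 bp had a median of 11.

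**Figure D2:**
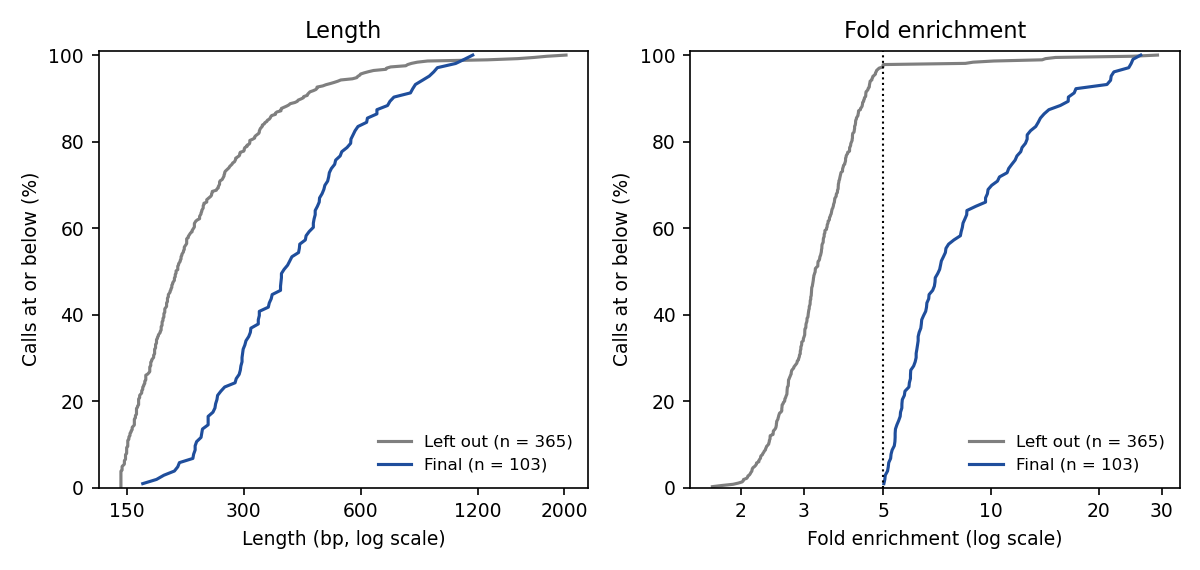
Cumulative share (%) of calls at or below a given length in bp (left) and fold enrichment (right), on log axes, for 365 left-out calls (grey) and 103 final peaks (blue). The dotted line marks a fold of 5; the left-out median is 201 bp against 381 bp, and the left-out curve of fold ends in a flat tail made of the 8 strong calls.

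The left-out calls were spread over every main chromosome arm. X held 47 left-out calls and 13 final peaks, 2L 60 and 17, 2R 83 and 14, 3L 85 and 25, and 3R 82 and 34. The shares of the 2 lists were close on X (12.9% of left-out calls and 12.6% of final peaks), 2L (16.4% and 16.5%) and 3L (23.3% and 24.3%). The lists differed most on 2R, with 22.7% of left-out calls and 13.6% of final peaks, and on 3R, with 22.5% and 33.01%. Per 1000 annotated genes, left-out calls numbered 17.1 on 2L to 24.4 on 3L and final peaks 3.84 on 2R to 8.05 on 3R. The median fold of left-out calls was 3.09 to 3.34 over the 5 arms.

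Chromosome 4, a small and largely heterochromatic chromosome, held 8 left-out calls and no final peak. Against its 114 annotated genes this was 70.2 calls per 1000 genes, a rate that rests on 8 calls. The other arms had 3.84 to 8.05 final peaks per 1000 genes, so a lack of final peaks over 114 genes says little. The 8 calls were weak, with pileups of 26.13 to 40.02 and folds of 2.40 to 3.74, and 3 of them lay together in or beside Cadps, which encodes a protein of regulated vesicle release. Another 2 formed a pair at Rad23. The median untagged level of the 8 was 10.5, against 11 over all left-out calls.

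**Figure D3:**
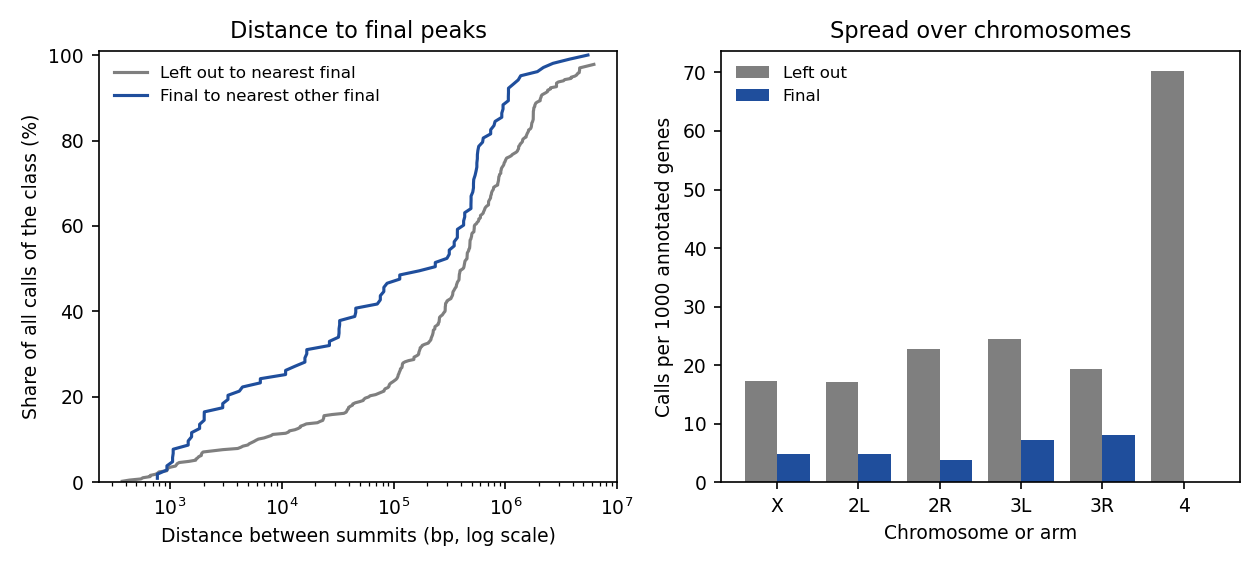
Left, cumulative share (%) of each class against the distance in bp (log axis) from its summit to the nearest final summit, for left-out calls (grey) and, to the nearest other final summit, for final peaks (blue). Right, bars of calls per 1000 annotated genes on each chromosome or arm. Chromosome 4 has 70.2 left-out calls (8 calls over 114 genes) and 0 final peaks. Over 100000 bp from a final summit lie 74.2% of left-out calls and 53.4% of final peaks.

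Most left-out calls lay far from any final peak, as most final peaks did from each other. The median distance from a left-out summit to the nearest final summit was 391458 bp, over the 357 calls on chromosomes with a final peak, and that from a final summit to the nearest other one was 236515 bp. The distance was over 100000 bp for 271 of the 365 left-out calls (74.2%, 69.4 to 78.7) and for 55 of the 103 final peaks (53.4%, 43.3 to 63.3). Within 10000 bp of a final summit lay 41 left-out calls, or 11.2% (95% exact binomial interval 8.18 to 14.9). By comparison 25 of the 103 final peaks, or 24.3% (16.4 to 33.7), had another final summit within 10000 bp. The share near a final summit was 12 of 74 calls (16.2%) at folds of 4 to 5, 18 of 156 (11.5%) at 3 to 4 and 11 of 127 (8.66%) under 3.

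At short range 26 left-out calls lay within 2000 bp of a final summit, 12 within 1000 bp and 2 within 500 bp, and none overlapped a final peak. The 26 neighbours resembled the calls farther away: their median length was 194 bp, pileup 38.8, untagged level 9.86 and fold 3.27, against 201 bp, 40.02, 11 and 3.22 over the 324 calls more than 10000 bp away. They flanked 22 of the 103 final peaks. Those 22 peaks had a median fold of 7.08, and the other 81 had 7.23.

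The nearest neighbour lay 374 bp from the final summit of tna, which encodes a protein linked to chromatin remodelling (3L, 10863181 to 10863388). Its fold was 4.37, on a pileup of 51.45 over an untagged level of 11. At RasGAP1, which encodes an inhibitor of Ras, a call 433 bp away had a pileup of 36.75 over 9 and a fold of 3.77. At eIF5B, which encodes a translation initiation factor, the distance was 550 bp and the fold 4.38, over an untagged level of 8. The 3 calls stood on untagged levels of 8 to 11, within the range of the final peaks.

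The other close neighbours stood on untagged levels between 7.80 and 21, also within the range of the final peaks (6.90 to 22). At aos, which encodes the secreted Egfr antagonist Argos, a call 572 bp from the final summit and 77 bp from the gene edge had a pileup of 58.8 over 15 and a fold of 3.74. At S, which encodes the Star protein needed to release Egfr ligands, a call 666 bp away and 27 bp from the gene had 41.65 over 20 and a fold of 2.03. At hbn, which encodes a homeodomain protein of the head, a call 776 bp away had 45.73 over 21 and a fold of 2.12. Around emc, which encodes an inhibitor of bHLH proteins, calls lay on both sides of the final summit. The one at 665 bp, inside hng3, had 37.57 over 8.76 and a fold of 3.95, and the one at 937 bp had 55.53 over 20 and a fold of 2.69. The calls near wntD (744 bp) and Shroom (798 bp) had folds of 3.08 and 3.15, over 7.80 and 8.14.

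Some left-out calls lay at the genes that the authors named for the final peaks. The body of 1 of the 88 named genes was within 10000 bp of 46 left-out summits, or 12.6% (9.38 to 16.4). The same held for 96 of 103 final summits (93.2%), a share that the naming itself sets, since the genes were named from these peaks. The summit was inside a named gene for 23 left-out calls. Altogether 32 of the 88 named genes had a left-out call within 10000 bp.

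Left-out summits lay closer to gene edges in the median than final summits did, although the intervals of both measures overlapped. An annotated gene edge, the first or last base of a gene in the table used, was within 1000 bp of 183 left-out summits, or 50.1% (44.9 to 55.4), and of 40 final summits, or 38.8% (29.4 to 48.9). The median distance to a gene edge was 969 bp in the left-out calls (712 to 1358) and 2132 bp in the final peaks (1124 to 3255). The 183 left-out calls near an edge stood on a median untagged level of 12, and the 182 farther away on 10. Summits inside genes were about as common in both lists, 234 of 365 (64.1%) and 62 of 103 (60.2%). The nearest gene was protein-coding for 321 left-out calls and 92 final peaks, and a long non-coding RNA for 38 and 11.

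Part of the left-out calls lay beside each other. With summits at most 10000 bp apart joined, 143 of the 365 (39.2%, 34.1 to 44.4) fell into 57 clusters. Of these clusters, 39 had 2 calls, 12 had 3, 4 had 4, and 1 each had 6 and 7. By the same distance 25 of the 103 final peaks (24.3%) had another final summit near. The lists differ in size, so the 2 shares are not like for like. Clustered calls had a median untagged level of 12.6 and a median fold of 3.13, and the 222 single calls had 10 and 3.32. When final peaks were added, 28 of 83 clusters held both kinds.

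The cluster with most calls lay in wech on 2R, a gene for an adaptor of integrin attachment, with 7 calls over 5476 bp. Its folds were 1.90 to 3.31, over untagged levels of 19.3 to 27. The next lay at S6KL and bnb on X, with 6 calls over 2935 bp, folds of 2.09 to 3.50 and untagged levels of 13 to 32. Of the 4 clusters of 4 calls, that in Nrt had folds of 2.14 to 3.40 over 19 to 25. That in tna had folds of 2.67 to 4.54 over 9 to 22 and was the only one of these 4 close to a final peak. In 4 of the 6 clusters of 4 or more calls, every call thus stood on an untagged level above the left-out median of 11; the exceptions were tna and a cluster near the tip of X.

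Genes of the receptor tyrosine kinase and ERK pathway were nearest to 17 left-out calls at 10 of 35 listed genes and to 12 final peaks at 9 genes. As shares these were 4.66% of left-out calls and 11.65% of final peaks. The median fold of the 17 was 4.58, against 3.23 over all left-out calls, and 7 of them were the strong calls in rl and Dsor1. Both kinds were found at RasGAP1, S, aos, sty and ths. Left-out calls without a final peak were at aop, which encodes the ETS repressor Yan, at spi and Krn, which encode Egfr ligands, and at rl and Dsor1. The aop call (2L, 2164856 to 2165356) had a pileup of 53.9 over 11 and a fold of 4.58. In spi, one call (2L, 19576379 to 19576708) had a fold of 4.59 over 9 and its neighbour (2L, 19575946 to 19576104) 2.32 over 16. In ths, which encodes an FGF ligand, the call (2R, 11795502 to 11795826) had a fold of 4.43 and lay 1209 bp from the final summit. The sty call, at the gene for the inhibitor Sprouty, had 3.06.

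Of 10 listed Cic target genes, 8 were nearest to a final peak and 4 to a left-out call. All 4 of the latter (aos, hkb, sty and ths) were among the 8. As shares of calls these genes made up 1.37% of left-out calls and 12.6% of final peaks. The genes nearest to neither, ind and zen, may still have a final peak at their locus that counts for another gene. For example, zen2 was nearest to a final peak. The same limit holds for the other gene lists. At hkb, a gap gene of the embryo ends, left-out calls with folds of 3.74 and 3.02 lay 2432 and 4297 bp from a final summit.

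Among gap, terminal and head genes, 13 left-out calls (3.56%) were nearest to 10 of 21 genes and 8 final peaks (7.77%) to 5 genes, with hbn and hkb in both. The gap gene hb had a left-out call with a fold of 4.47 (3R, 8701212 to 8701448), and kni had a pair with 3.15 and 3.40. The head genes croc and ems had calls with 4.17 and 4.05. The median fold of the 13 was 3.40, near the median of all left-out calls.

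Among dorsoventral genes, 9 left-out calls (2.47%) were nearest to 8 of 29 genes and 8 final peaks (7.77%) to 7 genes. Both kinds were found at 5 genes: dpp, a BMP ligand, pnr, a GATA factor, sna, the mesoderm repressor, sog, a BMP inhibitor, and ths. The calls of dpp and sna had folds of 3.68 and 3.20, at 1160 and 1699 bp from a final summit. A call in ush, which encodes a cofactor of GATA proteins, had 4.65 (2L, 518251 to 518604) and no final peak nearby, at 558857 bp.

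Pair-rule and segment polarity genes were nearest to 13 left-out calls (3.56%), at 9 of 17 genes, and to no final peak by the same gene table. The authors' own annotation named prd, a pair-rule gene, for 2 final peaks. The left-out calls were at ftz (3 calls, folds of 3.57, 3.59 and 4.03), ptc (4.18 and 2.32), odd (2.26 and 2.87), hh (4.02), slp1 and slp2 (3.54 and 3.53), hry (3.09), opa (2.71) and wg (2.36). Their median fold of 3.53 was near that of all left-out calls, and their median untagged level was 10.5. Of the Hox genes, Antp had 2 calls (3.76 and 3.23) and Dfd had 1 (2.35).

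Genes of zygotic activation and cellularization were nearest to 12 left-out calls (3.29%) at 5 of 13 genes and to 1 final peak (0.97%), at sisA. The left-out calls were at bnb (6 calls), slam (2), Sry-alpha (2), halo and bnk, of which Sry-alpha, slam and bnk act in cellularization. Their median fold was 2.58 and their median untagged level 21.4, against 3.23 and 11 over all left-out calls. At halo the pileup was 77.59 over 28.1, and at bnk 59.62 over 26. The part of the untagged level in these calls was not tested. Among 12 housekeeping genes, eIF4A had 1 left-out call and 1 final peak. Heat shock, histone, snRNA and rRNA genes had neither, and ribosomal protein genes had 1 final peak, at RpL17.

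There were 12 left-out calls inside the windows that the authors deposited around 10 of the final peaks, which gives a reading of them in 6 conditions. These windows hold z-scores per 10 bp out to 1000 bp on either side, where 0 is the mean of noise peaks in that condition. Each condition has 1 matrix of combined replicates and was centred by itself, so the z-score of a call was its mean over 150 bp at the highest place within 200 bp. This search raises weak signals. Final peaks were read at the centre without it, so a comparison of a searched call with its own final peak favours the call. The wild type matrix combines the libraries from which the calls were made. A call above its mirror place in wild type thus follows in large part from the calling and is no independent support. In wild type, 12 of 12 calls were higher than the mirror place on the other side of the centre when read at the fixed place. With the search, 11 of 12 were; the exception was a call at hbn whose mirror place holds the other hbn call.

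**Figure D4:**
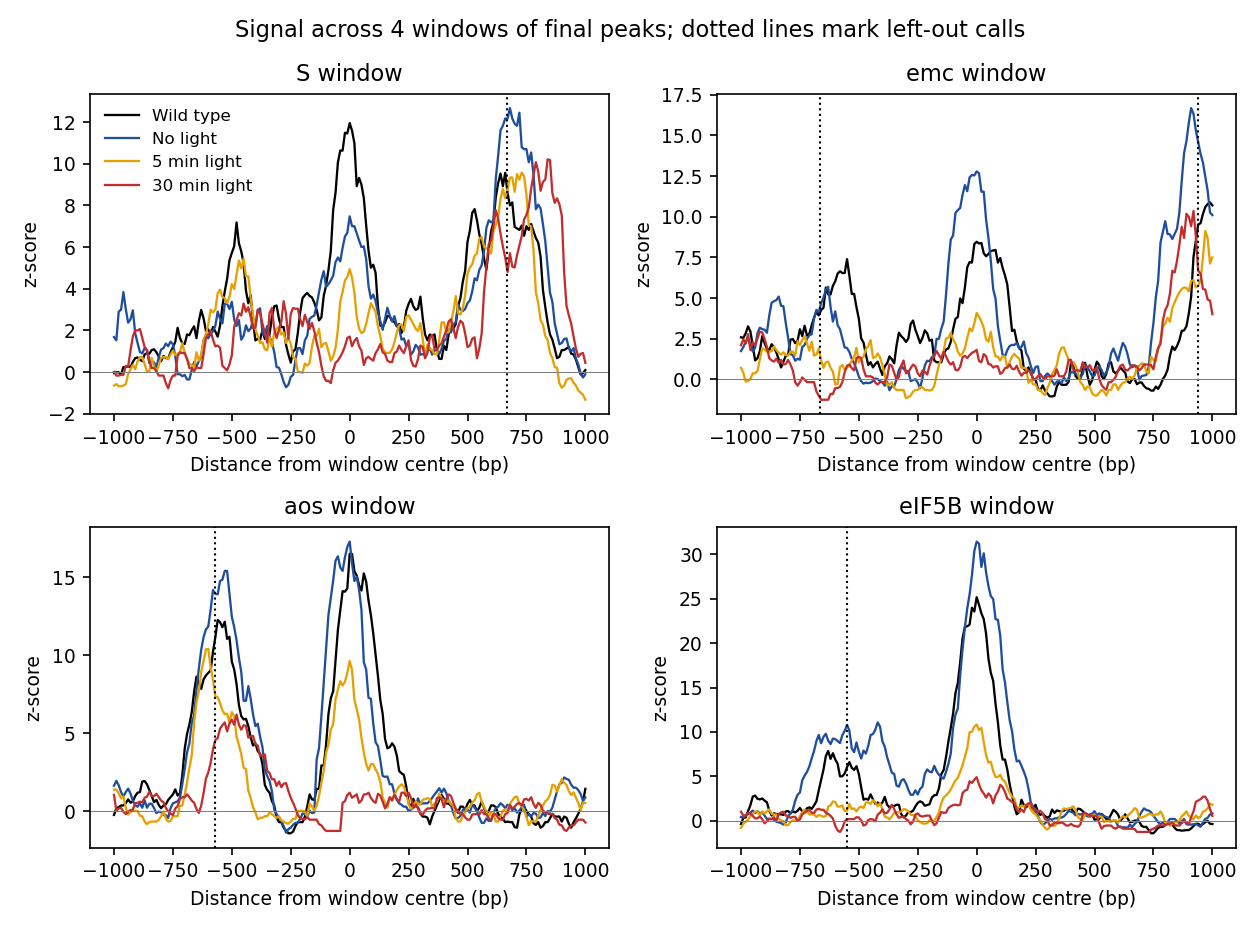
z-score against the distance in bp from the window centre for the final peaks at S, emc, aos and eIF5B, with lines for wild type, no light, 5 min and 30 min of light (1 combined matrix each). Dotted lines mark left-out calls; at S, emc (right) and aos the highest place within 200 bp of the call has 8.93, 7.99 and 5.41 at 30 min and the centre at most 1.29, and at eIF5B the call has 0.902 and the centre 3.41.

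Across light, 10 of these calls could be followed, those at least 550 bp from the centre. All 10 were lower after 30 min of light than with no light, 7 were lower after 5 min and 4 after 1 min. The differences at 30 min were -0.449 to -8.51. The centres of their own windows were also all lower after 30 min, by differences of -2.11 to -38.7. Since each condition has its own zero, a change at the calls cannot be told apart from a shift of the whole matrix. The share over all 99 final peaks read was not computed. The median z-score was 6.92 in no light, 9.52 after 1 min, 6.25 after 5 min and 3.72 after 30 min. No replicate spread is known for these values, so no test was possible.

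The calls are given by untagged level, a grouping chosen after the values were seen, beginning with the 4 at levels of 15 to 21. Each condition has its own zero and centring, so the values are set side by side and no share of signal kept is read from them. The call at S had a z-score of 11.5 in no light, 8.62 after 5 min and 8.93 after 30 min, while its final peak went from 6.12 to 2.95 and 0.998. The call at emc (937 bp) went from 13.8 to 7.18 and 7.99, and its final peak from 10.9 to 2.76 and 1.29. At aos the call went from 13.3 to 7.87 and 5.41, and the final peak from 14.7 to 6.94 and 0.325. At both times these 3 calls had higher z-scores than their own final peaks, with the search and at the fixed place, where the 30 min values were 6.18 (S), 7.49 (emc) and 3.71 (aos).

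The hbn call at 776 bp had 7.37, 7.23 and 6.33, and its final peak 20.1, 2.75 and 1.37. Its last value depends on the search, since the fixed place gave 0.767, below its final peak. In embryos with active Torso the 4 calls had 4.13 (hbn), 10.3 (S), 11.6 (emc) and 5.57 (aos), and each was above its own final peak.

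The 6 calls with untagged levels of 7.80 to 11.3 had, with the search, lower medians in each condition than the 4 above. They also had lower wild type pileups, 26.13 to 38.38 against 41.65 to 58.8. A call on a high untagged level needs a higher pileup to be called, so the wild type difference follows in part from the calling. Untagged level and pileup cannot be told apart here. The median z-score of the 6 was 5.03 in wild type, 5.14 in no light, 3.75 after 5 min, 2.75 after 30 min and 2.09 in active Torso. The call at eIF5B had 9.41 in no light, 15.8 after 1 min, 1.71 after 5 min and 0.902 after 30 min. The hng3 call beside emc (665 bp) had 3.98, 5.52, 1.91 and 1.59 in the same order. At CG42807 the value after 5 min, 9.76, was above the 6.46 of no light. After 30 min, 3 of these 6 calls were above their own final peak with the search and 1 at the fixed place.

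**Figure D5:**
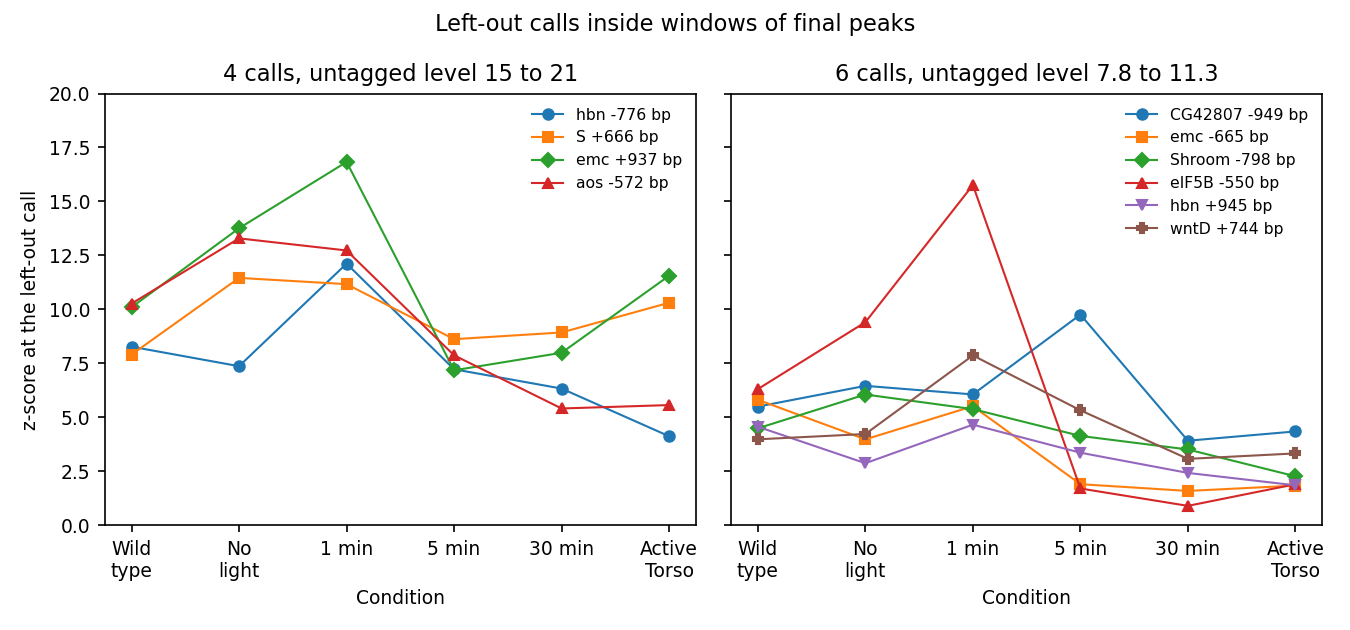
z-score at 10 left-out calls inside windows of final peaks, by condition, for 4 calls with untagged levels of 15 to 21 (left) and 6 with 7.80 to 11.3 (right). Each line is 1 call, named by its final peak and its offset in bp; values are the highest within 200 bp, which after 30 min of light gives 5.41 to 8.93 on the left and 0.902 to 3.92 on the right. At the fixed place the 30 min values overlap, at 0.767 to 7.49 and -0.684 to 3.71. Wild type pileups also differ, at 41.65 to 58.8 on the left and 26.13 to 38.38 on the right.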

How the data were processed

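Reads were processed by the authors, and the deposited files start at peak calls. The submitters' processing notes name Trim Galore, BWA 0.7.17-r1188, MACS2, SAMtools, ChIPseeker and dm6. Per the file headers, MACS 2.1.2 was run once on pooled wild type against pooled untagged ChIP libraries. It used a q threshold of 0.01, a genome size of 120000000, reads of 74 bp extended to 145 bp, and kept all duplicates. For each call the authors deposited the pileup, a coverage signal, the fold enrichment, a ratio, and -log10 p and -log10 q values. All of these are the authors' values. A score per peak, and matrices of z-scores over 201 windows of 10 bp, were deposited for the final list.

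The untagged level was recovered as (pileup + 1) divided by the fold, minus 1. It came within 0.01 of a whole number at 267 of 468 calls, and 34 calls lay at the genome-wide floor of 6.90. Pileups were whole reads multiplied by 0.817, within 0.00609 reads. Matrices were taken in the order of the peak list, and the first 99 columns were used; over these peaks the central wild type z-score and the pileup had a rank correlation of 0.99. Genes came from a RefSeq table of 17872 genes (Release 6 plus ISO1 MT) without strand, so gene edges stand in for start sites. All 88 genes named by the authors matched, as did 101 of 103 final peaks. Calls were named by a rule: the 10 highest folds, 5 longest, 5 highest pileups, 10 nearest to a final summit, members of the largest clusters, those at listed or named genes, and those at the edge of the final list. The members and gene lists were chosen with earlier results of these data known. Medians, order-statistic, exact Poisson and exact binomial intervals were computed with Python 3.11.15, pandas 2.3.3, NumPy 2.4.6 and SciPy 1.17.1. The recovery of the untagged level and the clustering were checked on simulated data, and the nearest distance on set positions. The intervals were not checked in this way. No test was run, since the call pooled its replicates. Alternatives covered the q threshold, distances, cluster gaps and subsets. Motifs were not searched, and input libraries were not used here.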

Additional observations from a re-analysis of the deposited data

How the results depend on the processing

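Of 30 alternatives over 9 results, 22 were counted as the same and 8 as moved, by the interval of the reported value. The window counts have no interval and were judged by the ratio of the counts. Leaving out overlaps with final peaks and keeping the main chromosome arms each retained all 365 calls, so these could not move a value. Reversal was not evaluated. Keeping only calls with a fold at least that of the lowest final peak left the 8 strong calls, with a median length of 318 bp, pileup of 121.69 and fold of 14.06. Requiring a -log10 q of at least 5 left 257 calls, with a median pileup of 41.65, a median fold of 3.62 and 32.3% in clusters. A gap of at most 5000 bp put 33.4% in clusters, and a gene edge within 3000 bp held for 68.8%. Alternatives on the 8 strong calls, single calls per cluster, gene edges and fixed places in the windows were chosen after seeing the data. At the fixed place, 8 in place of 7 window calls were lower after 5 min. The motif scan and start-site promoters were not run without a genome sequence or strand, nor was leaving out each replicate. No paired analysis was possible because the peak call pooled the replicates of each group. With 29 to 285 reads at a left-out summit, the counting intervals of 98 left-out calls under 5-fold reach it, and embryo-to-embryo spread is unknown.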

Other observations

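A cluster of 4 left-out calls lay near the tip of X beside lncRNA:CR40469, with summits from 114266 to 115997. Its folds were 3.21 to 4.78 over untagged levels of 6.90 to 12, and the nearest final summit was 2872781 bp away. A different picture was seen in the cluster of 4 calls at CG15125 and lncRNA:CR44504 on 2R (summits 19659203 to 19661092). There the pileups of 85.75 to 117.6 exceeded the final median of 78.4, but the untagged levels were 36 to 58 and the folds 1.66 to 2.34, which include the lowest fold of all left-out calls. Among small RNA genes, tRNA genes were nearest to 2 left-out calls, miRNA genes to 2 and a snoRNA gene (snoRNA:U3:54Aa) to 1, and none was nearest to a final peak.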
